A study of Caenorhabditis elegans with 2 samples.

Results

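The genes described here encode yolk proteins, gut proteases and saposin-like proteins of Caenorhabditis elegans. They are the protein-coding genes of the Ensembl release 115 annotation of WBcel235 whose name is vit-, cpr-, asp- or spp- followed by a number. That rule took 62 of 19973 protein-coding genes on the nuclear chromosomes, with 6 vit, 8 cpr, 17 asp and 31 spp genes, and used no measured value. The 62 genes were scored for regions recovered by chromatin immunoprecipitation and sequencing (ChIP-seq) of ELT-3, a GATA-type zinc finger factor of the epidermis. The series holds a single group, 2 biological replicates of strain OP75, whose genotype is given as unc-119(ed3) III; wgIs75. In this strain an insertion carries elt-3 with an eGFP tag, the antibody target is given as elt-3, and the animals were whole embryos of mixed stage, pooled from both sexes and of unknown age. No other genotype or treatment was compared, and data of a control were not analysed here. As a model the group is limited to a tagged transgene in embryos of all tissues, before the adult stage at which yolk genes are expressed.

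As background, vitellogenins are lipid-carrying yolk proteins that the adult hermaphrodite intestine makes and secretes for uptake by oocytes. The cpr genes encode cathepsin B-like cysteine proteases and the asp genes cathepsin D-like aspartic proteases, which digest food or work in lysosomes. The spp genes encode saposin-like proteins, some of which, the caenopores, make pores in the membranes of ingested bacteria. Transcription in the intestine is driven largely by other GATA factors, ELT-2 and ELT-7, and ELT-2 binds TGATAA sites near the start of many intestinal genes. ELT-3 recognises the same GATA core, so these promoters carry sequences it could bind in a tissue where it is not a principal factor. The name does not make each gene intestinal, since some members of these families are used in other tissues.

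Regions came from 4 of the authors' lists on build ce11. The reproducible list (637 regions) passed a threshold on agreement between replicates. The pooled list (12702), the replicate 1 list (19168) and the replicate 2 list (26381) are each described by the authors as peaks and background, the input to that threshold. Each region has a signal value, the authors' score with no stated scale, which is compared only within a list, where it is also given as a percentage counted from the highest signal. A gene was scored by summits, the single base each list gives as a region's peak, that fell in its 5′ window. This window starts 1000 bp before the annotated 5′ end and stops 500 bp after it. Peak lists give no read depth. In whole embryos, fewer cells with a bound site and weaker occupancy per cell cannot be told apart. No test was run on the 62 genes. Their counts are set beside the same counts over all protein-coding genes.

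The sequences below show what the family carries at its promoters. Each is the 200 bases upstream of the annotated 5′ end, read on the strand of the gene from the RefSeq WBcel235 (ce11) assembly, with TGATAA or its reverse complement TTATCA in capitals. vit-2, vit-6, cpr-1 and cpr-6 are shown as well-known intestinal genes, and asp-9 and spp-3 because no asp or spp gene has more such sites in this stretch, although other members have as many. None of these 6 genes had a summit in its 5′ window in any of the 4 lists. The stretches are vit-2 at chrX:5100842-5101041 (plus strand), vit-6 at chrIV:8260957-8261156 (plus), cpr-1 at chrV:11975351-11975550 (plus), cpr-6 at chrX:6607007-6607206 (plus), asp-9 at chrIV:6185689-6185888 (plus) and spp-3 at chrX:7315354-7315553 (minus).
vit-2: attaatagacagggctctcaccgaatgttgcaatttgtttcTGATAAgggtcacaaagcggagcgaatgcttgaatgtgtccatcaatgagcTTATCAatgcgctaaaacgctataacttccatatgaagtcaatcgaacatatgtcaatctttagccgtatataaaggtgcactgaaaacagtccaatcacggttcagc
vit-6: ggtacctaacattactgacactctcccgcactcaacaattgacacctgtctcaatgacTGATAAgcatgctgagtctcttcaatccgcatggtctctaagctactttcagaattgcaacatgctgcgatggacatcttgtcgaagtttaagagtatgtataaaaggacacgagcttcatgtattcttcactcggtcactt
cpr-1: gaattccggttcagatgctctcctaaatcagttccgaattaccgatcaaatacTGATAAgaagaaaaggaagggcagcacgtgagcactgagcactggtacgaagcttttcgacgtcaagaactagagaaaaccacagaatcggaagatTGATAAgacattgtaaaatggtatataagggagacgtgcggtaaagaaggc
cpr-6: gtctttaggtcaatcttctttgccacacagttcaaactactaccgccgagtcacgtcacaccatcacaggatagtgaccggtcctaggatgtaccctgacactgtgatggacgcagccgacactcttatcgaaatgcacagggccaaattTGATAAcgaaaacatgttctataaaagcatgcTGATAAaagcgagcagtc
asp-9: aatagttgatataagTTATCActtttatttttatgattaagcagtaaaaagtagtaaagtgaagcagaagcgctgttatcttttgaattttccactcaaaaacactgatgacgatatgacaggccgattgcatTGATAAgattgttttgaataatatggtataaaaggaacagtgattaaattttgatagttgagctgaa
spp-3: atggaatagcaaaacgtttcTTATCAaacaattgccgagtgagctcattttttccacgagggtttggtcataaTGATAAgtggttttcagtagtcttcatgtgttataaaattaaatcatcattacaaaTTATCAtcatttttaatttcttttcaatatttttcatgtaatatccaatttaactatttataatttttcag
vit-2, cpr-1, cpr-6 and asp-9 hold 2 such sites each in these 200 bases, spp-3 holds 3 and vit-6 holds 1.

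TGATAA, searched on both strands, was present in the 5′ window of 60 of the 62 genes (96.8%, exact binomial 95% interval 88.8 to 99.6%), where 78.8% of all windows of this length held it. The 2 without it were spp-17 and spp-23. The members averaged 2.76 copies per window and all genes 1.71, and cpr-9 had the most, with 7. The rearranged sequence TGTAAA was in 80.6% of member windows and 79.4% of all windows. Base composition was close, with a median A+T content of 63.5% in the members and 64.8% in all genes.

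Many of the members' sites lay close to the gene start. In the 250 bp just upstream, counted by the first base of the site, there were 1.18 sites per member and 0.349 per gene over all genes, a ratio of 3.37. In the other 5 bins of 250 bp the ratio ran from 0.924 to 1.42. In that upstream stretch 43 of the 62 members (69.4%) held at least 1 complete site and 20 (32.3%) held at least 2, against 26.8% and 6.4% of all genes. By family, those with a site were all 6 vit genes, 7 of 8 cpr genes, 13 of 17 asp genes and 17 of 31 spp genes.

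**Figure D1:**
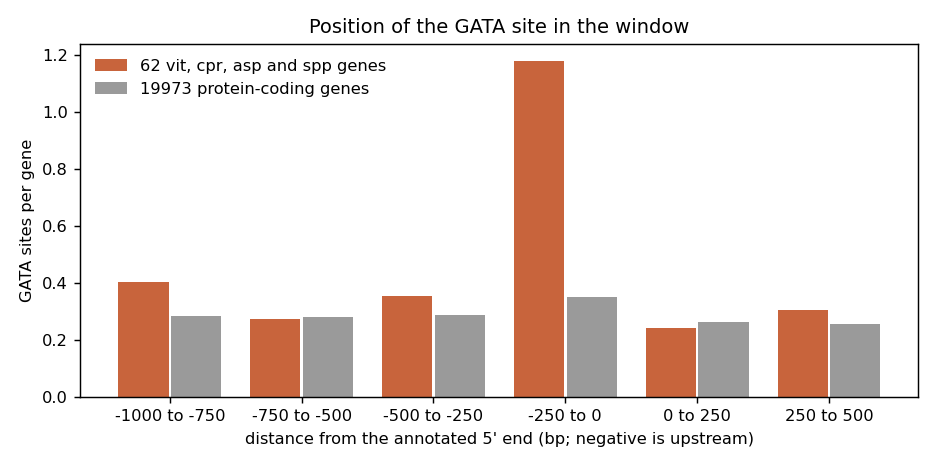
TGATAA sites per gene (either strand) in bins of 250 bp across the 5′ window, with 0 at the annotated 5′ end, for the 62 vit, cpr, asp and spp genes and for all 19973 protein-coding genes. The bin just upstream of the 5′ end holds 1.18 sites per member and 0.349 per gene over all genes.

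Few of these promoters had an ELT-3 ChIP region. In the reproducible list 1 of the 62 genes had a summit in its window (1.61%, exact 95% interval 0.0408 to 8.66%), beside 1.79% of all genes, which is near the background. In the pooled list 3 had one (4.84%, exact 95% interval 1.01 to 13.5%), beside 25.4% of all genes. With as many of the highest regions of replicate 2 alone, 11 members had one (17.7%), beside 25% of all genes. The replicate 1 list gave 6 members (9.68%) beside 33.6% of all genes, and the replicate 2 list gave 17 (27.4%) beside 41.8%. In replicate 2 the 31 spp genes stood at 41.9%, near all genes, and the 31 other members at 12.9% (exact 95% interval 3.63 to 29.8%). In replicate 1 both sets stood at 9.68%. The families were not alike there, since the 8 cpr genes stood at 37.5% (exact 95% interval 8.52 to 75.5%), near all genes. Members with a summit in both replicate lists numbered 3 (4.84%) beside 21.1% of all genes. In all, 42 members had no summit in any list (67.7%), beside 45.5% of all genes. Intervals cover counting error only, and 10 of the 62 windows overlap the window of another member, so the genes are not fully independent.

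**Figure D2:**
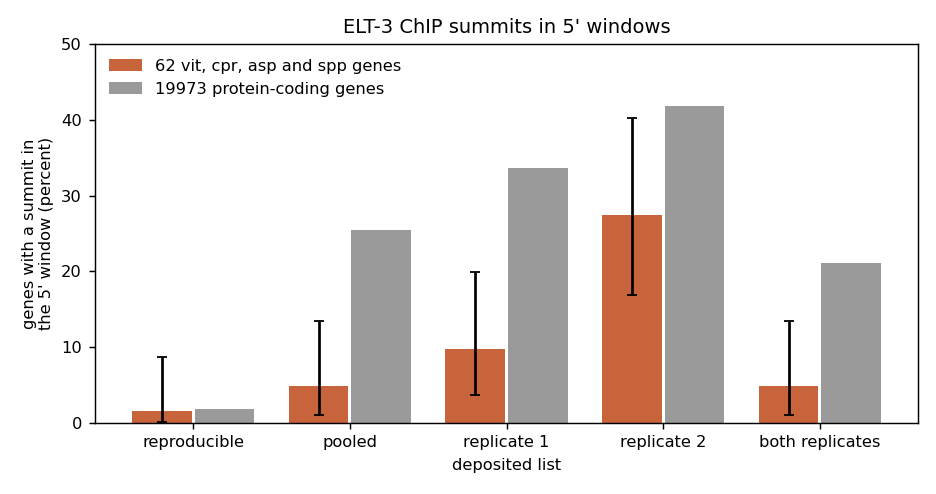
Percentage of genes with a summit in the 5′ window in each deposited list, and in both replicate lists, for the 62 vit, cpr, asp and spp genes and all 19973 protein-coding genes. Error bars are exact binomial 95% intervals of the members, and the members' bar is lower than that of all genes in each of the 5 pairs, at 4.84% beside 25.4% in the pooled list and with almost equal bars in the reproducible list.

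Most members with a summit had it in a single replicate. Of the 6 members in the replicate 1 list 3 were also in the replicate 2 list (50%), and these were 3 of the 17 in the replicate 2 list (17.6%). Over all genes the shared part was 62.7% of the replicate 1 genes and 50.5% of the replicate 2 genes. The members called in both replicates, cpr-9, spp-13 and spp-23, were the same 3 genes as in the pooled list.

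The share of genes with a pooled summit did not follow the number of TGATAA sites. Over all genes it was 24.8% with no site in the window and 25.4% with 4 or more. It was 25.5% of genes holding at least 1 site in the window and also 25.5% of those holding at least 2. Among genes with a site between 250 bp upstream and 50 bp downstream it was 24.9%. Of the 60 members with a site in the window 2 had a pooled summit, cpr-9 and spp-13, while spp-23 had a pooled summit and no site.

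Sites themselves were compared with summits. The members have 70 distinct TGATAA sites in the 250 bases upstream of their 5′ ends. They lie at 43 genes, 20 of which hold at least 2, so 1 summit can lie near several sites. The sites are therefore not independent, and intervals that count them as such are too narrow. A pooled summit lay within 100 bp of 1 of them (1.43%, exact 95% interval 0.0362 to 7.7%), beside 7% of the 6668 such sites at all genes. A replicate 1 summit lay near 3 (4.29%, exact 95% interval 0.893 to 12%) beside 8.41%. A replicate 2 summit lay near 4 (5.71%, exact 95% interval 1.58 to 14%) beside 9.78%. No reproducible summit lay near a member site (exact 95% interval 0 to 5.13%), beside 0.705% at all genes. In each of the 4 lists the interval holds the share at all genes. No summit of any list lay near 64 member sites (91.4%), beside 84.4% at all genes.

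Among the vitellogenin genes, which supply yolk from the adult intestine, no summit lay in a 5′ window in the reproducible, pooled or replicate 1 list. With 6 genes the exact 95% interval of each such share runs from 0 to 45.9%, which holds the shares of all genes (1.79%, 25.4% and 33.6%). In replicate 2, where the share of all genes was 41.8%, only vit-4 of the 6 had one (16.7%, exact 95% interval 0.421 to 64.1%), 334 bp upstream, with a signal of 7.64 (the highest 27.8% of that list), an intergenic summit without a GATA core sequence. A GATA core sequence here means any of 4 motifs on either strand within 50 bp of a summit. The first is AGATAA and the second is AGATAG, while the third, TGATAA, was already counted alone and the last is TGATAG. At least 1 of these 4 was in 96.8% of member windows and 96.1% of all windows. All 6 vit genes held TGATAA at least 2 times in the window. The nearest region to vit-2, which encodes a large yolk polypeptide, lay just beyond the window, in intergenic sequence 1206 bp upstream in the pooled list (X, 5099646 to 5100025, signal 25.8, the highest 18%). The same place had a signal of 17.5 in replicate 1 (the highest 12.1%) and 8.08 in replicate 2 (the highest 24.1%), with summits 16 and 79 bp away. That pooled summit held no GATA core sequence within 50 bp. For the other vit genes the nearest pooled summit was 2633 bp (vit-5), 3956 bp (vit-3), 8121 bp (vit-6), 9778 bp (vit-1) and 12540 bp (vit-4) from the 5′ end. vit-3 and vit-4 were the members whose windows repeat most elsewhere, with 68.8% and 67.9% of their 31-base words found once in the genome, against a median of 100% over the members. No member was under 50%, beside 2.88% of all genes, and whether repeats lowered the regions called at vit-3 and vit-4 was not tested.

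Of the 8 cathepsin B-like genes, the reproducible, pooled and replicate 2 lists each gave 1 (12.5%, exact 95% interval 0.316 to 52.7%). Replicate 1 gave 3 (37.5%, exact 95% interval 8.52 to 75.5%), near the 33.6% of all genes. The other shares of all genes were 1.79%, 25.4% and 41.8%, and each interval holds the share of all genes. Among these 8 genes, cpr-9 was the member with a reproducible summit. Its region (V, 12001962 to 12002341) had a signal of 44.0, in place 565 of 637 in the reproducible list, and stood in the highest 4.45% of the pooled list. It had a signal of 28.6 in replicate 1 (the highest 2.61%) and 14.6 in replicate 2 (the highest 4.55%), with summits 18 bp apart. It is high in both replicates, but other genes lie nearer to the summit. It lies 901 bp upstream of cpr-9, in an exon of the noncoding RNA gene F57F5.7, within 200 bp of a tRNA gene, and 355 bp from the 5′ end of gcy-33, a guanylate cyclase gene in whose window it also falls. No GATA core sequence was within 50 bp of it, although cpr-9 has 7 TGATAA sites in its window. The part of the tRNA gene in this region was not tested.

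In replicate 1 alone, cpr-2 had a summit 52 bp downstream of its 5′ end at 9.06 (the highest 83.9%). Also in replicate 1 alone, cpr-3 had one 578 bp upstream, in an exon of a pseudogene, at 10.3 (the highest 61.4%). Both are below that list's median of 11.1, and neither had a summit in replicate 2 or the pooled list. cpr-1, cpr-4, cpr-5, cpr-6 and cpr-8 had none in any list. For cpr-1, a protease gene expressed in the gut, the nearest pooled summit was 1696 bp upstream with a signal of 15.7, among the lower part of that list. cpr-4, with 4 sites in its 250 upstream bases, was 8277 bp from a pooled summit, and cpr-6 was 8236 bp away.

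The aspartic protease genes had few regions. Of 17, none had a summit in the reproducible, pooled or replicate 1 list (exact 95% interval of each share 0 to 19.5%), and 2 had one in replicate 2 (11.8%, exact 95% interval 1.46 to 36.4%). The shares of all genes in these lists were 1.79%, 25.4%, 33.6% and 41.8%, so a count of 0 in the reproducible list is near the background. The 2 genes were asp-13, 35 bp upstream at 4.81 (the highest 80.4%), and asp-18, 885 bp upstream at 4.54 (the highest 88.7%). Both are near that list's lowest value of 4.21, and the asp-18 summit is nearer to the 5′ end of scl-19 (573 bp). asp-13 also had a pooled summit beyond its window, 778 bp downstream at 15.1 (the highest 80.9%). The other 15 had none in any list, namely asp-1 to asp-9, asp-12, asp-14 to asp-17 and asp-19. asp-3 and asp-4, whose proteases take part in necrotic death of neurons, were 5074 and 3917 bp from the nearest pooled summit. asp-1, an intestinal protease gene, was 15700 bp from one.

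Among the saposin-like genes 2 of 31 were in the pooled list (6.45%, exact 95% interval 0.791 to 21.4%), 3 in replicate 1 (9.68%) and 13 in replicate 2 (41.9%), where all genes stood at 41.8%. The replicate 2 share thus stood near the background and the replicate 1 share did not. spp-13 had a pooled summit 74 bp upstream (X, 8418408 to 8418787) with a signal of 17.7, in the highest 52.6%. Its best summits were at 10.3 in replicate 1 (the highest 61.7%) and 8.0 in replicate 2 (the highest 24.6%), 99 bp apart. spp-18 had one in replicate 1 alone, 153 bp upstream in intergenic sequence, at 13.4 (the highest 29.0%), with 1 GATA core sequence.

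The remaining 11 saposin-like genes with a replicate 2 summit had it in no other list. spp-14 was the highest at 9.52 (the highest 14.9%), 399 bp upstream, in a 3′ UTR exon of K09F5.6, and spp-15 the lowest at 5.29 (the highest 66.6%). spp-31 followed spp-14 at 8.27, with its summit 562 bp upstream and 2 TGATAA sites within 50 bp. The others were spp-5, a caenopore gene, 39 bp downstream at 6.22, and spp-9, spp-10, spp-17, spp-21, spp-22, spp-26 and spp-27, between 5.49 and 7.17. The spp-26 summit was within 200 bp of a tRNA gene. The spp-15 summit, 546 bp upstream, was nearer to the 5′ end of cof-2 (268 bp). Likewise the spp-17 summit, 466 bp upstream, was nearer to that of C54G6.8 (197 bp). The median of the replicate 2 list, which includes background regions, is 6.05. spp-1 to spp-4, spp-6 to spp-8, spp-11, spp-12, spp-16, spp-19, spp-20, spp-24, spp-25 and spp-28 to spp-30 had no summit in a window in any list.

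**Figure D3:**
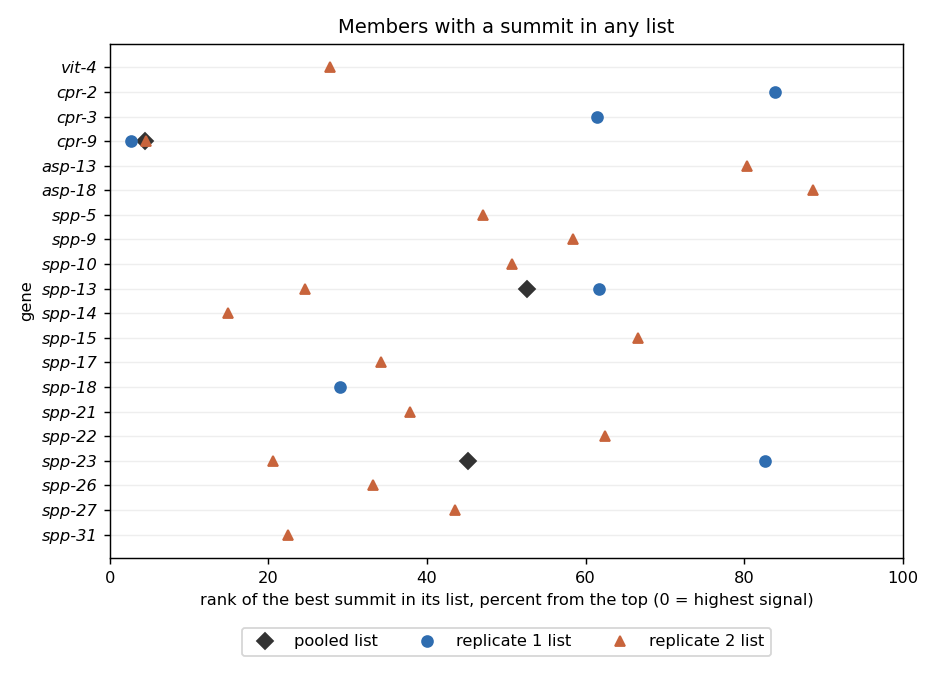
Rank of the best summit in the 5′ window, as a percentage from the top of its list (0 is the highest signal), for the 20 members with a summit in any list. cpr-9 is near the top in all 3 lists (2.61 to 4.55%), spp-13 and spp-23 have a point for each list, and the other 17 genes have a point from 1 replicate only.

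The highest region at any member lay just outside the window. spp-28, a saposin-like gene on chromosome III (4189360 to 4190341, minus strand), has a reproducible region at 4189623 to 4190002 whose summit is 528 bp downstream of the 5′ end, 28 bp past the window. The summit is in an intron of spp-28. Its signal was 88.9 in the pooled list, in place 76 of 12702 (the highest 0.598%), against 44.0 at cpr-9. Replicate 1 gave 51.2 (place 84, the highest 0.438%) and replicate 2 gave 36.6 (place 91, the highest 0.345%), with summits 1 and 8 bp away. It is thus high in both replicates and at the same place. Unlike the cpr-9 region it lies in an intron of a member, has no small structural RNA gene within 200 bp, and holds 3 GATA core sequences within 50 bp of the summit. This region, and those beyond the windows of vit-2, cpr-1, asp-13, spp-7 and spp-9, were chosen after their values were seen.

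The bases around 4 member summits are shown, chosen after their values were seen: the reproducible ones at cpr-9 and spp-28, a pooled one at spp-13 without a core sequence, and one from replicate 1 alone at spp-18 with a core sequence. The pooled summit of spp-23, which is higher than that of spp-13 and also has no core sequence, is not printed. Each line is 101 bases centred on a summit, on the strand of the named gene, with GATA core sequences or their reverse complements in capitals. They are cpr-9 at chrV:12002102-12002202 (plus strand, reproducible list), spp-28 at chrIII:4189763-4189863 (minus, reproducible list), spp-13 at chrX:8418548-8418648 (minus, pooled list) and spp-18 at chrIV:9593509-9593609 (plus, replicate 1 list).
cpr-9: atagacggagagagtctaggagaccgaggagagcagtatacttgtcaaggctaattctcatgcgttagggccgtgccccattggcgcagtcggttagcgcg
spp-28: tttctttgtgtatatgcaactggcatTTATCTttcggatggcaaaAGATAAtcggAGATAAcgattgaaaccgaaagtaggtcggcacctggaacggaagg
spp-13: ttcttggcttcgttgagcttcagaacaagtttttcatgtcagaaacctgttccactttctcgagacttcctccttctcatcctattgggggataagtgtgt
spp-18: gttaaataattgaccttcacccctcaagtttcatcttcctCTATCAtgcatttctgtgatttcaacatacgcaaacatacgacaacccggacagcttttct
spp-28 has AGATAA 3 times, of which 1 is read as TTATCT, and no TGATAA. The cpr-9 summit and the pooled summit of spp-13 have no core sequence, and spp-18 has 1, read as CTATCA. The best replicate 1 summit of spp-13, 140 bp upstream, does have TGATAA within 50 bp, and its replicate 2 summit, 41 bp upstream, has no core sequence.

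Over the members' best summits, a GATA core sequence lay within 50 bp of 0 of 3 in the pooled list, 2 of 6 in replicate 1 (33.3%) and 6 of 17 in replicate 2 (35.3%). Over the best summits of all genes these shares were 24.4%, 23.8% and 22.1%. TGATAA itself was at 1 of the 6 replicate 1 summits, that of spp-13, and at 3 of the 17 replicate 2 summits, those of spp-21, spp-27 and spp-31. Each member share rests on at most 17 summits.

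At larger distances from a pooled summit the shares of members and of all genes came together. The median distance from a 5′ end to the nearest pooled summit was 4183 bp for members and 2820 bp for all genes. Within 2000 bp, on either side, lay 21% of members and 41.6% of genes. Within 5000 bp it was 56.5% and 66.8%, and within 10000 bp 85.5% and 85.4%. By the reproducible list the members were not below all genes at these distances. There the shares were 3.23% and 2.96% within 2000 bp, 6.45% and 6.16% within 5000 bp, and 16.1% and 11.2% within 10000 bp. These shares rest on 2 to 10 members. Between 1000 and 2000 bp upstream, pooled summits lay at vit-2, cpr-1, asp-12, spp-7, spp-9, spp-10 and spp-29. Those of spp-7 (signal 22.7, 1503 bp upstream) and spp-9 (24.8, 1765 bp upstream) were close in both replicates. spp-7 had 13.7 in replicate 1 and 8.84 in replicate 2, and spp-9 had 13.6 and 9.66. In the rest of the gene, beyond 500 bp downstream, 3 members had a pooled summit (4.84%), beside 16.9% of all genes, but members were shorter, with a median length of 1433 bp against 2027 bp.

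**Figure D4:**
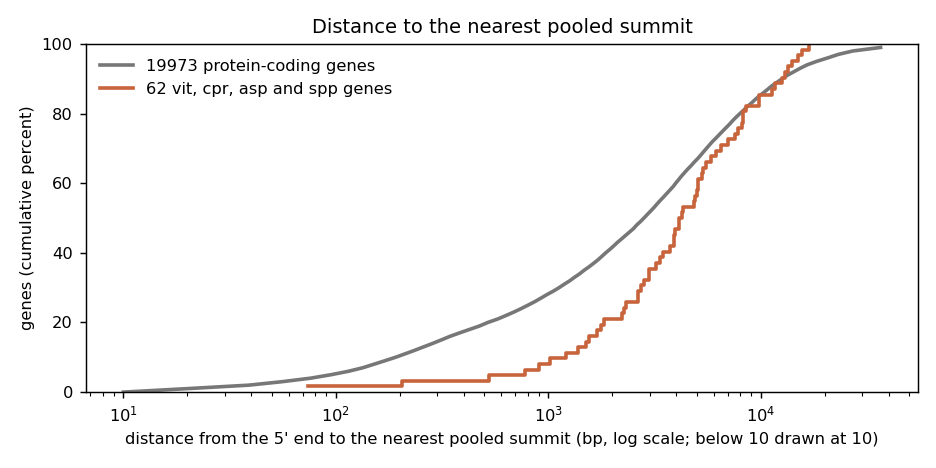
Cumulative percentage of genes by the distance from the annotated 5′ end to the nearest pooled summit (log axis), for the 62 members and all 19973 protein-coding genes. The members' curve runs below that of all genes up to about the point where 85.5% of members and 85.4% of genes are within 10000 bp.

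Chromosomes differ in how many genes have a region, and the members are spread unevenly over them. On V were 27 members, of which 1 had a pooled summit, beside 18.2% of all genes on V. On X were 20, of which 1 had one, beside 26.5%. On IV 0 of 7 had one, beside 22.5%. Chromosomes II and III held 2 members each and neither pair had a pooled summit, beside 23.5% and 31.3%. Of the 4 on I, spp-23 had one (204 bp upstream, signal 18.6, the highest 45.2%), beside 36.9%. The replicate values of spp-23 were 9.12 (the highest 82.6%) and 8.55 (the highest 20.6%), with best summits 166 bp apart.

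Other genes of the intestine were counted in the same way. Of 21 genes of intestinal structure and enzymes, 1 had a pooled summit (4.76%, exact 95% interval 0.12 to 23.8%), beside 25.4% of all genes. A reproducible summit was at 0 of them (exact 95% interval 0 to 16.1%), near the background of 1.79%. The gene with the pooled summit was nhx-2, a gut sodium-proton exchanger gene, 59 bp downstream at 19.7. Of these 21 genes 4 were in replicate 1 (19%, exact 95% interval 5.45 to 41.9%), beside 33.6% of all genes. Among the 4 were erm-1, fat-7 and ifc-2 at 8.39 to 8.48, next to the list's lowest value of 8.38. In replicate 2 there were 6 (28.6%, exact 95% interval 11.3 to 52.2%), beside 41.8% of all genes. Of the 6, mtl-2, a metallothionein gene, was the highest at 9.50. The intervals in both replicates hold the shares of all genes. In the rest of the gene, 7 of the 21 had a pooled summit (33.3%), beside 16.9% of all genes. These genes were longer, with a median of 3433 bp against 2027 bp. Of 8 endoderm regulators, 2 had a pooled summit (25%), a share at the background of 25.4%. These were skn-1, which starts endoderm specification, 744 bp upstream at 21.8, and end-1, an endoderm GATA factor gene, 826 bp upstream at 19.7, and each held 1 GATA core sequence at the summit. Among 7 genes that regulate yolk genes or take up yolk, 1 had a pooled summit (14.3%, exact 95% interval 0.361 to 57.9%). That interval holds the 25.4% of all genes. The gene was unc-62, a homeodomain factor acting on vit genes, 43 bp downstream at 14.9. Of 22 other lysosomal and digestive genes, 6 had a pooled summit (27.3%), namely cpz-1, cpz-2, lmp-1, lys-5, lys-8 and ilys-5, near the background of 25.4%. cpl-1, the cathepsin L gene, had no pooled summit in its window. Its best summit was 994 bp upstream in replicate 1, at 29.9 (the highest 2.28%), and 436 bp downstream in replicate 2, at 10.2 (the highest 12.1%), so these are separate regions.

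The members' pooled share of 4.84% was below that of each of 3 larger lists, and all genes stood at 25.4%. Of 156 col collagen genes, which build the cuticle from the epidermis, 27 had a pooled summit (17.3%). Of 185 gst, ugt and cyp detoxification genes, many of them also intestinal, 52 had one (28.1%), near the background. Of 78 genes of cytoplasmic ribosomal proteins, 64 had one (82.1%). In both replicate lists these shares were 10.9%, 22.7% and 76.9%, beside 4.84% of the members and 21.1% of all genes. In the replicate 2 list they were 28.2%, 40.5% and 88.5%, beside 27.4% of the members and 41.8% of all genes. There the members and the col genes were level, and both were below all genes. With the 12702 highest regions of replicate 2 in place of the pooled list, the members' share was 17.7%, beside 25% of all genes. TGATAA was in 78.2% of col windows, 88.1% of gst, ugt and cyp windows and 74.4% of ribosomal protein windows, beside 96.8% of member windows. The differences between lists were not tested.

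**Figure D5:**
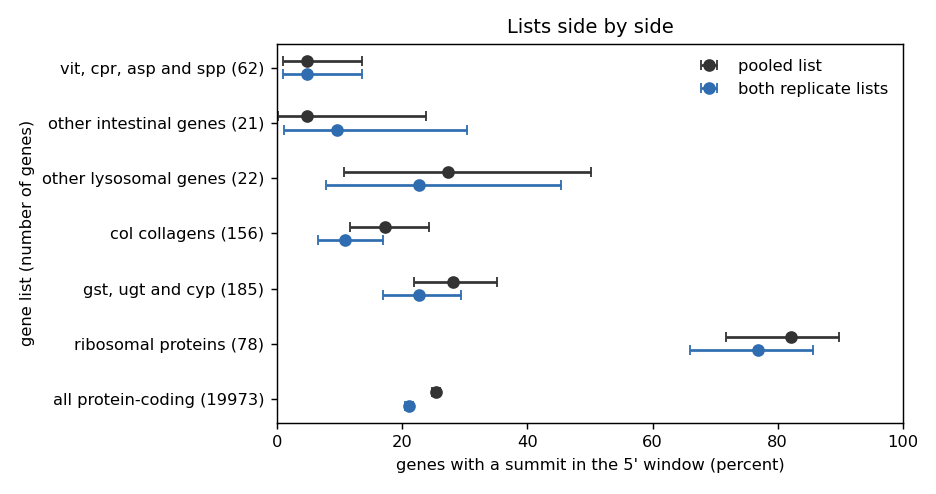
Percentage of genes in each list with a summit in the 5′ window in the pooled list and in both replicate lists, with exact binomial 95% intervals. The 62 members are at 4.84% for both, all protein-coding genes at 25.4% and 21.1%, and ribosomal protein genes at 82.1% and 76.9%.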

How the data were processed

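ELT-3 ChIP-seq was analysed from the peak lists the authors deposited for 2 biological replicates. Per the listings deposited with each library, regions were derived from each replicate's alignments, and from both pooled, together with 1 further file that the listings do not describe; the labels name a possible control. The reproducible list was derived from these by a threshold on the irreproducible discovery rate. Aligner, peak caller and thresholds: not given in the sources used here. The signal column deposited by the authors is a score with no stated scale. Lists on ce10 were not used.

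Lists on ce11 were joined to WBcel235 (the same assembly) and Ensembl release 115 genes. A summit counted for a gene inside the 5′ window (1000 bp before to 500 bp after the 5′ end), and a gene's best summit was that of highest signal. The 5′ ends of trans-spliced genes need not be transcription starts. Small structural RNA genes were tRNA, snRNA, snoRNA and rRNA genes within 200 bp of a summit. Motifs and words of 31 bases were read from the assembly on both strands. Shares have exact binomial (Clopper-Pearson) 95% intervals. Python 3.11.15, numpy 2.4.6 and scipy 1.17.1 were used, and the scoring was tested on simulated summits.

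The members and lists were chosen with earlier results of these data known. Named genes are the members with a reproducible summit, all vit genes, those in the top 10% of both replicates, those without a summit, and 6 well-studied members. Up to 5 of each other family with the highest pooled signals were also to be named. Only 1 cpr, 0 asp and 2 spp genes had a pooled summit in the window, so fewer than 5 were named by this rule. Members with a summit in 1 replicate only, regions outside the windows, and genes of the other lists were named after their values were seen. Replicates are labelled as biological, and nothing more is said of their source.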

Additional observations from a re-analysis of the deposited data

How the results depend on the processing

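Of 28 alternatives, 15 kept the count within 1.5 times and 13 did not. The cause was not tested. The 15 include the rearranged sequence TGTAAA in the windows and at the summits, which is a control and no check on a count. The count of members with a reproducible summit (1) was 0 with windows from 500 bp upstream, beside 1.38% of all genes. It was also 0 with each summit given only to the nearest gene (beside 1.37%). Without summits near small structural RNA genes (beside 1.69%) and among regions above the list's median signal (beside 0.781%) it was 0 too. It was 2 with any overlap of region and window, which added spp-28 (3.23%, beside 2.03% of all genes). Leaving out either replicate, that is, taking the 637 highest regions of the other, gave 0 to 1, beside 1.71% to 1.91% of all genes. These counts of 0 to 2 members are all near the background. The count with a pooled summit (3) was 10 with windows from 2000 bp upstream (16.1%, beside 33.8% of all genes) and 5 with any overlap (8.06%, beside 28.1%). Leaving out either replicate, with the 12702 highest regions of the other, gave 4 to 11. The 11 came from replicate 2 (17.7%, beside 25% of all genes) and the 4 from replicate 1 (6.45%, beside 24.8%). The count in both replicates (3) was 11 with windows from 2000 bp (17.7%, beside 31.6%), 7 with any overlap (11.3%, beside 24.3%) and 1 among regions above each list's median signal (1.61%, beside 10.9%). For the pooled list and for both replicates, the members' share was below that of all genes in each alternative. A GATA core sequence was at 0 of 3 pooled summits within 50 bp, beside 24.4% over all genes. Within 100 bp it was at 1 of 3 (33.3%), near the 40.1% over all genes. Members with TGATAA numbered 60, and 46 held it in the shorter window (74.2%, beside 30.3% of all genes). Any of the 4 core sequences was in 60 (96.8%, beside 96.1%). The control TGTAAA was in 50 (80.6%, beside 79.4%), so staying within 1.5 times does not set TGATAA apart from it. Read depth is unknown, so which members lacked enough reads to be called cannot be said.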
